A study of Homo sapiens with 16 samples.

Results

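The 10 mRNAs described here encode members of the BCL2 family of apoptosis regulators: MCL1, BCL2, BCL2L1 and BCL2L2, which favour survival, BAK1 and BOK, which can form pores, and the BH3-only proteins BID, BAD, BCL2L11 and BIK. They were taken from the 58302 genes of the count files by a list of gene symbols, drawn up with earlier results of these data known. Family members best known as p53 targets were left aside, and so were others not on the list, such as BMF and HRK. The 10 are therefore not the whole of the family outside p53 targets. Each of the 10 symbols matched 1 Ensembl gene ID. RNA-seq had been run on HEK293, an established human embryonic kidney line, in 4 groups of 4 libraries. Cells of the siRNAG5 groups received a 100 nM siRNA against Gemin5, an RNA-binding protein of the SMN complex that also acts on translation. Ctrl cells are called untreated in the sample labels, whereas the protocol names a control siRNA and the study's immunoblot takes the control siRNA as Ctrl, and these sources were not reconciled here. From each culture, poly(A) RNA was sequenced from the whole cytoplasmic lysate (Input) and from the pooled polysome fractions of a sucrose gradient (Polysome), after cycloheximide had been added to hold ribosomes on the mRNA. All groups share the cell line, and the silencing was transient and incomplete, so the siRNAG5 cells hold less Gemin5 rather than none.

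BCL2 family proteins decide whether the outer mitochondrial membrane stays intact. The prosurvival members bind and hold both the pore formers and the BH3-only proteins. BH3-only proteins, once made or activated, occupy the prosurvival members or push BAK and BAX into forming pores, which lets cytochrome c out and starts the caspases. Several members are short-lived or regulated at translation or after it, MCL1 being the usual example, so the level of an mRNA need not follow that of its protein. Proteins were not measured in these files.

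Reads assigned to genes ranged from 13347866 to 18053614 in Input Ctrl, 18411789 to 24511299 in Input siRNAG5, 11145324 to 14955873 in Polysome Ctrl and 14407396 to 16884295 in Polysome siRNAG5. GEMIN5 itself was at 15.92 to 20.66 CPM (read counts brought to a common library size by TMM scaling) in Input Ctrl and 6.225 to 7.459 in Input siRNAG5 (log2 FC -1.40 ± 0.12 SE, edgeR adjusted p = 3.105e-10), and its log2 FC in Polysome was -1.44 ± 0.21 (edgeR adjusted p = 0.004768). On the third principal component of all genes, 3 Polysome libraries, Ctrl 1, siRNAG5 1 and siRNAG5 4, scored 35.3 to 38.5 and stood apart from the other 5 Polysome libraries, at -26.3 to 2.16. Each of 6 genes listed as expressed in HEK293 had reads in all groups, and 5 of them averaged over 1 CPM in both Input groups. Reads alone do not identify the line, since all 10 liver markers also had reads in Input Ctrl. RNA of liver genes moved with treatment. The summed level of 10 liver markers was 68.3 to 142 CPM in Polysome Ctrl and 0.33 to 0.738 CPM in Polysome siRNAG5, and in Input it was 128 CPM in Ctrl 3 and 111 CPM in Ctrl 4 but 0.973 to 2.39 CPM in Ctrl 1, Ctrl 2 and the 4 siRNAG5 libraries, with APOB, SERPINA1 and FGA at 0 reads in every siRNAG5 library. Summed blood markers were lower but also moved with treatment on polysomes, at 3.02 to 4.41 CPM in Ctrl and 0.539 to 0.871 CPM in siRNAG5. Summed brain markers went the other way on polysomes, at 3.52 to 4 CPM in Ctrl and 4.61 to 5.89 CPM in siRNAG5.

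Many mRNAs of the translation machinery begin with a 5′ terminal oligopyrimidine (TOP) tract, which ties their translation to growth signals. The letters at the annotated starts are given for BID and BAD, on which the results turn, and for BOK. The BOK start is the only one found among the members that was counted as TOP-like by the rule below. RefSeq annotates 5 starts for BID and 2 for BAD on GRCh38.p14, and 1 for BOK. Each line holds 15 bases upstream of the start in lower case followed by the first 15 transcribed bases in capitals, all on the strand of the gene.
BID, chr22:17774651-17774680, minus strand: cttaaagttggacgaCACTGTCTGAAACAG
BID, chr22:17774481-17774510, minus strand: cgggcgtggggggccGAAGGAGGAAGCGCG
BID, chr22:17774455-17774484, minus strand: cgcgcggggcgccatAAGGAGGAAGCGGGT
BID, chr22:17774028-17774057, minus strand: gggcgcggggaggggGAGGGGCCGAGGCCA
BID, chr22:17773969-17773998, minus strand: ggccgggtgcaggccACCCTTGCCGGCGGA
BAD, chr11:64284690-64284719, minus strand: tcccgttgcccaagcAACTAGGGCCCGGAG
BAD, chr11:64284651-64284680, minus strand: ctggagggaggcggcAGGCCCGGGTCAGGG
BOK, chr2:241558730-241558759, plus strand: agccccaagcccagcCTCTCGCCAGCTGGG
A start was counted as TOP-like when its first transcribed base was C and the next 4 were pyrimidines (C or T), read on the strand of the gene only. None of the 7 starts of BID and BAD has these letters. The start of BOK does, and it is the only 1 of 13 starts found for 7 of the genes, against 1429 of all 35116 annotated starts (4.07%). MCL1, BCL2L2 and BIK were not in the table used. A start with these letters is a description of the annotation and not a site shown to be used in these cells. The study's description of the TOP motif asks for a longer run of pyrimidines than this rule. The BOK start, with 4 after its C and then a G, falls short of that description.

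Levels were compared between genes as CPM per kilobase of the canonical transcript (GENCODE v44), so that long and short mRNAs can be set side by side. In Input Ctrl the order ran from BAD, with 120 ± 5.58 CPM per kb (SD, n = 4), through BID with 37.3 ± 0.905, BAK1 with 15 ± 2.29, MCL1 with 7.59 ± 0.714 and BCL2L1 with 3.86 ± 0.607. BIK followed at 2.36 ± 0.472, BCL2L11 at 1.96 ± 0.476, BCL2L2 at 0.843 ± 0.255, BOK at 0.188 ± 0.0514 and BCL2 at 0.119 ± 0.0305 CPM per kb. The ranges of the 4 libraries overlapped between BIK and BCL2L11 and between BOK and BCL2, and between no other neighbours in this order. BAD, a BH3-only protein whose binding is controlled by phosphorylation, was thus the most abundant of the 10 mRNAs per length in Input Ctrl, and BCL2, which gave the family its name, had the lowest mean.

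In Polysome Ctrl MCL1 moved up the order, with 19.6 ± 4.67 CPM per kb beside 19.6 ± 2.28 for BAK1, their ranges overlapping, and BCL2 lay above BOK with overlapping ranges. In Polysome siRNAG5, MCL1 at 19.6 ± 3.96, BID at 18.1 ± 3.75 and BAK1 at 17.1 ± 2.62 CPM per kb overlapped, while in Polysome Ctrl BID, at 32.2 ± 4.36, overlapped neither. With all exons of a gene as its length in place of the canonical transcript, the order of BID, BAK1 and MCL1 changed in every group but Input Ctrl. By that length MCL1 held rank 4 in both Input Ctrl and Polysome Ctrl, so its move up was not seen. BCL2 then lay below BOK in Polysome Ctrl. All annotated exons sum to 4420 nt for BID, 6222 nt for MCL1 and 2212 nt for BAK1, against 2177, 3950 and 2170 nt in the canonical transcripts. As a share of the summed level of the 10 mRNAs per kb, BAD held 61.3 to 64.9% in Input Ctrl and 66.6 to 68.7% in Input siRNAG5, and BID held 19 to 20.6% and 14.2 to 15.3%. In Polysome siRNAG5 the share of BAD spread from 39.1 to 57%, against 49.4 to 62.1% in Polysome Ctrl.

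**Figure D1:**
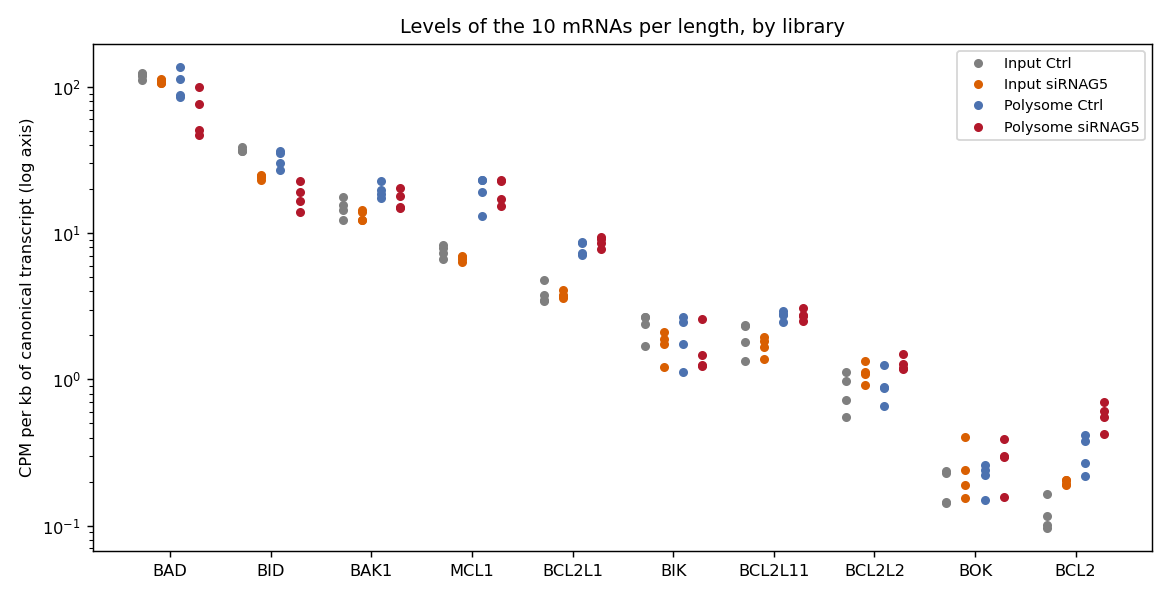
Level of each of the 10 mRNAs per length (CPM per kb of canonical transcript, log axis), 1 point per library in 4 groups of 4. BAD lies highest, at 120 CPM per kb on average in Input Ctrl, and the Polysome points of MCL1, BCL2L1 and BCL2 sit above their Input points. BCL2 has the lowest mean in Input (0.119 in Ctrl) and BOK in Polysome (0.218 in Ctrl). With all exons as the length, BCL2 was the lowest in Polysome Ctrl too.

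The first comparison asks which mRNAs changed in the cytoplasm when Gemin5 was silenced (Input siRNAG5 versus Ctrl). BID fell by 0.61 on the log2 scale and no other member passed the test. A gene was called when its edgeR quasi-likelihood adjusted p was under 0.05 and its log2 FC beyond 0.5 in size. BOK was too low to be tested in Input, and 1 of the other 9 members was called, against 16.5% of the 14134 genes tested (6.02% lower and 10.5% higher). The median log2 FC was -0.16 over the 9 tested members and 0.04 over all genes. Groups of 4 libraries that did not overlap were seen for 2 members, BID below and BCL2 above Ctrl, against 34.2% of genes (19.1% below and 15.1% above).

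BID links death receptors to mitochondria, since caspase-8 cuts the protein into an active fragment. Its gene lies on chromosome 22 (17734138 to 17774770, minus strand, GRCh38), with 6 exons in the canonical transcript. In Input, BID had 81.08, 80, 79.94 and 84.14 CPM in Ctrl 1 to 4 and 54.55, 53.48, 50.35 and 52.96 CPM in siRNAG5 1 to 4. The 2 groups lay far apart, with little spread inside either. The log2 FC was -0.61 ± 0.07 (SE), a ratio of 0.656, with an edgeR adjusted p of 4.331e-08. In these bulk samples fewer cells of a type and less RNA per cell cannot be told apart. BID was at 81.08 and 80 CPM in Ctrl 1 and 2, where the liver markers summed to 2.39 and 0.973 CPM, and at 79.94 and 84.14 CPM in Ctrl 3 and 4, where they summed to 128 and 111 CPM.

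The second comparison asks the same of the mRNAs on polysomes (Polysome siRNAG5 versus Ctrl). BID was again the only member called, with a log2 FC of -0.80 ± 0.17 (SE) and a ratio of 0.576. Of the 10 members, 1 was called against 7.95% of 14420 genes (4% lower and 3.95% higher), and the median log2 FC was 0.05 over the members and 0.03 over all genes. BID below and BCL2 above Ctrl were the 2 members whose groups did not overlap, against 18.3% of genes (10% below and 8.29% above). BID had 79.36, 76.77, 59.28 and 65.3 CPM in Polysome Ctrl 1 to 4 and 41.66, 36.03, 30.39 and 49.53 CPM in Polysome siRNAG5 1 to 4. Every siRNAG5 library lay below every Ctrl library, and the spread within a group was wider than in Input. The factors of the TMM scaling over 16 libraries were 0.975 to 1.25 in Polysome Ctrl and 1.29 to 1.59 in Polysome siRNAG5. In Input they were 0.741 to 0.785 in Ctrl and 0.805 to 0.852 in siRNAG5. The scaling thus lowers siRNAG5 values relative to Ctrl values, more so in Polysome, and changes without such scaling were not tested.

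The edgeR adjusted p for BID in Polysome was 0.02036. It was above 0.05 when Ctrl 2 (0.08526), siRNAG5 2 (0.05484) or siRNAG5 3 (0.05312) was left out, with log2 FCs of -0.73, -0.74 and -0.67. Without the 3 libraries that stood apart, a choice made after the data had been seen, it was 0.002359 with a log2 FC of -0.96. That fit kept only siRNAG5 2 and 3 on the siRNAG5 side, the ones with the lowest BID levels. Over all genes it called 1788 lower and 1327 higher of 14717, against 577 and 569 of 14420 in the main fit. The liver markers were present in all 4 Polysome Ctrl libraries and nearly absent in the siRNAG5 libraries, and their part in the Polysome results was not tested.

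**Figure D2:**
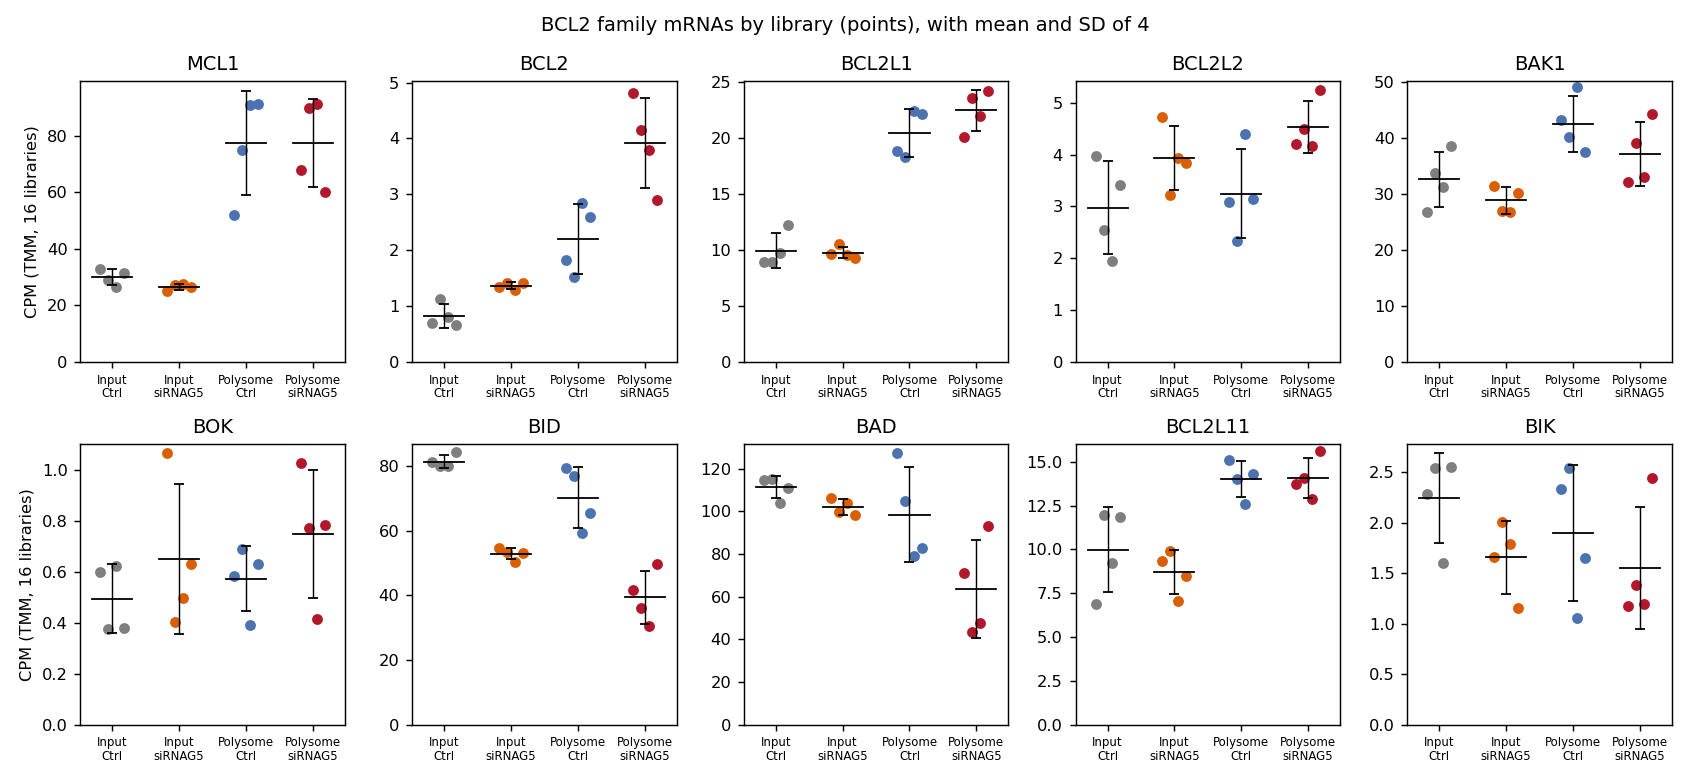
CPM of each mRNA in every library (points), with the mean and SD of 4 libraries (bars), on a linear axis from 0 for each gene. For BID the siRNAG5 points lie below the Ctrl points in both fractions (50.35 to 54.55 against 79.94 to 84.14 CPM in Input), and for BCL2 above them.

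BAD sits next to BID among the BH3-only genes but its values scattered more on polysomes. It is the sensitizer that occupies BCL2, BCL-XL and BCL-W, and its gene is on chromosome 11 (64269830 to 64284704, minus strand). Input levels were 114.5, 115.3, 103.9 and 111 CPM in Ctrl 1 to 4 and 106, 99.44, 104 and 98.41 CPM in siRNAG5 1 to 4, overlapping groups with a log2 FC of -0.11 ± 0.07 (edgeR adjusted p = 0.1846). Polysome levels were 127.3, 104.8, 78.98 and 82.54 CPM in Ctrl and 71.12, 43.53, 47.42 and 92.97 CPM in siRNAG5. The Polysome groups overlapped through siRNAG5 4, and the log2 FC of -0.59 ± 0.25 did not pass the test (edgeR adjusted p = 0.1458).

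The BAD levels were also read within each set of Polysome libraries. Among the 3 that stood apart, Ctrl 1 had 127.3 CPM against 71.12 and 92.97 CPM in siRNAG5 1 and 4. Among the other 5, Ctrl 2, 3 and 4 had 78.98 to 104.8 CPM against 43.53 and 47.42 CPM in siRNAG5 2 and 3. Within each set the siRNAG5 libraries were the lower ones. The sets were drawn from these same data, and the set of 3 has only Ctrl 1 on the Ctrl side, so this reading is no test. Fitted without the 3 libraries, a choice made after the data had been seen, BAD had a log2 FC of -0.91 in Polysome (edgeR adjusted p = 0.003246). On its antisense side BAD shares 23.7% of its exon length with GPR137, which held 7256 reads over the 16 libraries, and whether the counting used strand is not given in the sources used here.

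**Figure D3:**
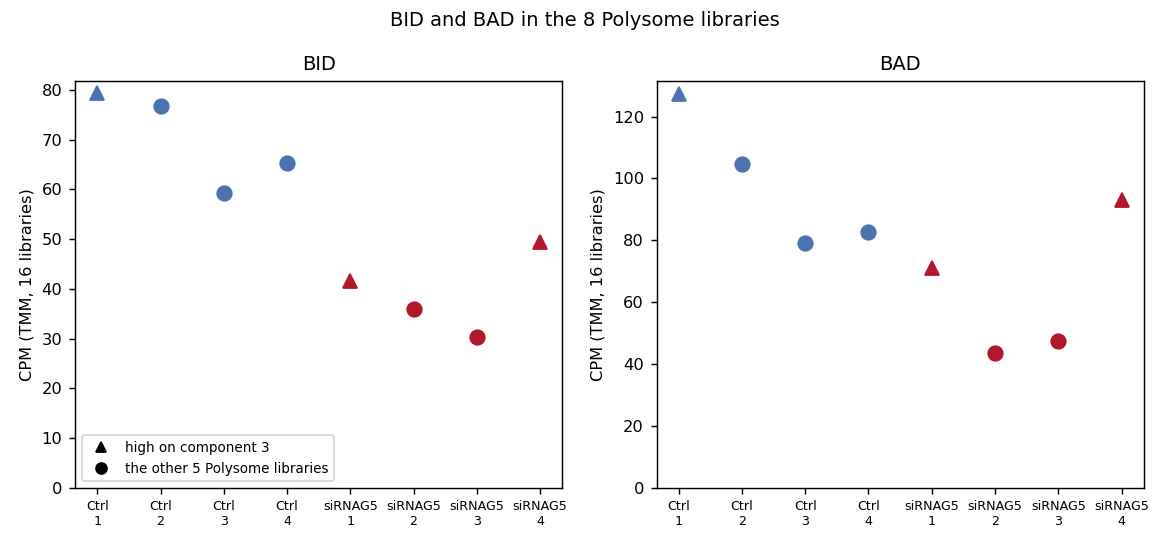
CPM of BID and BAD in the 8 Polysome libraries on linear axes from 0, with triangles for the 3 libraries that scored high on the third principal component and circles for the other 5. The groups do not overlap for BID, while for BAD siRNAG5 4, at 92.97 CPM, lies above Ctrl 3 and Ctrl 4.

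Neither of the remaining BH3-only genes was called after silencing. BCL2L11 encodes BIM, which can bind all prosurvival members (chromosome 2, 111119378 to 111168444, plus strand). It had 6.864, 11.97, 9.248 and 11.84 CPM in Input Ctrl, 9.324, 9.931, 7.071 and 8.468 in Input siRNAG5, 15.07, 14.01, 12.61 and 14.32 in Polysome Ctrl and 13.73, 14.09, 12.87 and 15.59 in Polysome siRNAG5, with log2 FCs of -0.21 and 0.05 (edgeR adjusted p = 0.2922 and 0.853). The treatments overlapped in both fractions. MIR4435-2HG, with 3793 reads over the 16 libraries, shares 10.8% of the BCL2L11 exon length on the opposite strand. BIK, a BH3-only protein found largely at the endoplasmic reticulum (chromosome 22, 43110750 to 43129712, plus strand), rested on 18 to 53 reads per library. It had 2.288, 2.544, 1.601 and 2.558 CPM in Input Ctrl and 1.665, 2.013, 1.793 and 1.157 in Input siRNAG5, a log2 FC of -0.44 ± 0.24 (edgeR adjusted p = 0.1531). Its Polysome levels were 2.332, 2.541, 1.06 and 1.652 CPM in Ctrl and 1.179, 1.386, 1.196 and 2.444 CPM in siRNAG5, with a log2 FC of -0.24 ± 0.34. Over the 4 BH3-only genes the median log2 FC was -0.32 in Input and -0.42 in Polysome, and 1 of 4 was called in each. These medians rest on 4 values, from -0.61 (BID) to -0.11 (BAD) in Input and from -0.80 (BID) to 0.05 (BCL2L11) in Polysome.

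None of the 4 prosurvival mRNAs was called in either fraction, and their median log2 FC was 0.21 in Input and 0.35 in Polysome. The 4 values ran from -0.16 to 0.71 in Input and from 0.05 to 0.87 in Polysome. BCL2, the founding prosurvival member (chromosome 18, 63123346 to 63320128, minus strand), was scarce, with 7 to 15 reads in Input Ctrl and 20 to 27 in Input siRNAG5. Its levels were 0.6964, 1.123, 0.8003 and 0.6633 CPM in Input Ctrl and 1.332, 1.409, 1.295 and 1.42 CPM in Input siRNAG5. On polysomes they were 1.832, 1.511, 2.847 and 2.596 CPM in Ctrl and 4.817, 4.157, 3.794 and 2.905 CPM in siRNAG5. In both fractions each siRNAG5 library lay above each Ctrl library.

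The log2 FC of BCL2 was 0.71 ± 0.30 in Input (edgeR adjusted p = 0.05896) and 0.87 ± 0.25 in Polysome (edgeR adjusted p = 0.05348), so it missed the threshold by a small margin in both. In Polysome DESeq2 called it, with a log2 FC of 0.84 and an adjusted p of 0.01975. So did edgeR without the 3 libraries that stood apart (0.83, adjusted p = 0.042), a choice made after the data had been seen. In Input edgeR called it with Ctrl 2 left out (0.92, adjusted p = 0.03767), the library with the highest Ctrl level, and DESeq2 did not (adjusted p = 0.1428). With 1 library left out the edgeR adjusted p ranged from 0.03767 to 0.1394 in Input and from 0.03437 to 0.1597 in Polysome. Of all alternatives 2 of 16 called BCL2 in Input and 7 of 17 in Polysome. In each fraction 1 of these calls was the main fit read with an unadjusted p, a looser rule.

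BCL2L2 encodes BCL-W (chromosome 14, 23298790 to 23311751, plus strand). It had 3.979, 2.544, 1.956 and 3.411 CPM in Input Ctrl against 4.729, 3.221, 3.934 and 3.84 in Input siRNAG5, and 3.081, 2.335, 4.409 and 3.147 CPM in Polysome Ctrl against 4.202, 4.504, 4.165 and 5.257 in Polysome siRNAG5. The groups overlapped in both fractions. The log2 FC was 0.43 ± 0.20 in Input (edgeR adjusted p = 0.08779) and 0.52 ± 0.22 in Polysome (edgeR adjusted p = 0.1451), and in Input it ranged from 0.28 without Ctrl 3 (edgeR adjusted p = 0.3085) to 0.59 without Ctrl 1 (edgeR adjusted p = 0.03713), the one alternative of 16 that called it. The readthrough gene BCL2L2-PABPN1 shares 16.8% of the BCL2L2 exon length on the same strand, and reads of that stretch cannot be given to one gene alone.

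MCL1, whose protein is short-lived (chromosome 1, 150560895 to 150579738, minus strand), was not called in either fraction. It had 32.93, 29.04, 26.5 and 31.46 CPM in Input Ctrl against 25.04, 27.04, 27.54 and 26.51 in Input siRNAG5, with a log2 FC of -0.16 ± 0.09 (edgeR adjusted p = 0.1553). In Polysome it had 52.13, 75.06, 90.98 and 91.27 CPM in Ctrl and 67.95, 89.92, 91.26 and 60.23 CPM in siRNAG5. The lowest 3 of these 8 values belong to the 3 libraries that stood apart. The Polysome log2 FC was 0.05, with an interval of 2 SE from -0.35 to 0.44.

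BCL2L1, which encodes BCL-XL and its short splice form BCL-XS (chromosome 20, 31664452 to 31723989, minus strand), had 8.906 to 12.22 CPM in Input Ctrl and 9.31 to 10.53 CPM in Input siRNAG5. Its log2 FC was -0.01 ± 0.12, with an interval of 2 SE from -0.26 to 0.23. In Polysome it had 18.82, 18.33, 22.44 and 22.11 CPM in Ctrl and 20.09, 23.52, 21.98 and 24.21 CPM in siRNAG5, overlapping groups with a log2 FC of 0.18 ± 0.13 (edgeR adjusted p = 0.4067). Counts per gene do not separate the 2 splice forms, and on the opposite strand ABALON, with 5 reads over the 16 libraries, shares 41.3% of the exon length.

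The pore formers were not called. BAK1 (chromosome 6, 33572547 to 33580293, minus strand) encodes BAK, which sits in the outer mitochondrial membrane and oligomerizes when activated. It had 26.76 to 38.66 CPM in Input Ctrl, 26.84 to 31.44 in Input siRNAG5, 37.53 to 49.06 in Polysome Ctrl and 32.13 to 44.27 in Polysome siRNAG5. Its log2 FC was -0.17 ± 0.10 in Input (edgeR adjusted p = 0.1885) and -0.16 ± 0.15 in Polysome (edgeR adjusted p = 0.5284). BOK, a relative of BAK whose protein is kept low by degradation (chromosome 2, 241551424 to 241574131, plus strand), had 4 to 20 reads per library and overlapping groups in both fractions. In Polysome its log2 FC was 0.43 ± 0.36, with an interval of 2 SE from -0.29 to 1.14, which does not exclude a 2-fold change.

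**Figure D4:**
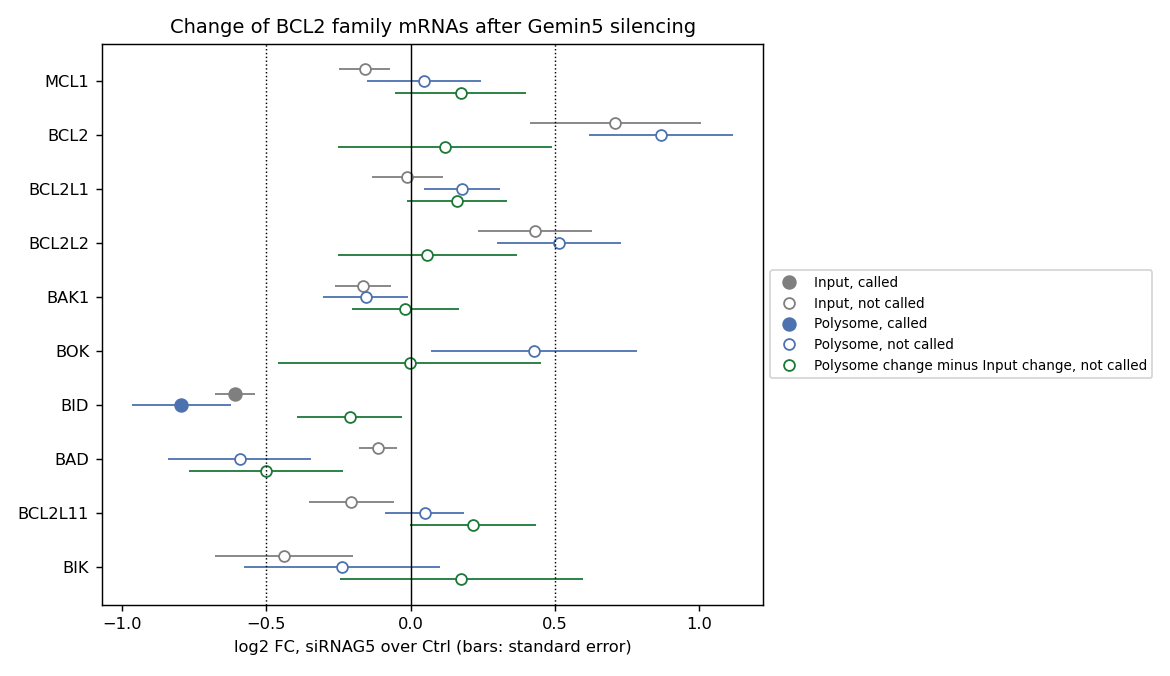
Log2 FC of siRNAG5 over Ctrl for each mRNA in Input (grey) and Polysome (blue), and the difference of the 2 changes (green), with bars for the standard error, filled points for called values and dotted lines at -0.5 and 0.5. BID is the only filled gene, at -0.61 in Input and -0.80 in Polysome.

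The third comparison asks whether the change on polysomes differed from the change in Input, in 1 fit over 16 libraries. No member was called, and 0% of all 14958 genes were called by edgeR (0% lower and 0% higher), with 1089 genes at an unadjusted p under 0.05 and 29 called by DESeq2, 11 lower and 18 higher. No member had an unadjusted p under 0.05 by edgeR. The median difference was 0.09 over the members and -0.06 over all genes. For BID the difference was -0.21 ± 0.18 (edgeR adjusted p = 0.8705), so the fall on polysomes was not shown to be larger than in Input, and the interval of 2 SE ran from -0.57 to 0.15.

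BAD had the difference of largest size among the 10, at -0.50 ± 0.27 with an edgeR adjusted p of 0.7289 and an unadjusted p of 0.07538. It was called when 1 surrogate variable was added to the edgeR fit (-0.51, adjusted p = 0.04579), and, with a choice made after the data had been seen, without the 3 libraries that stood apart (-0.83, edgeR adjusted p = 0.00141). With 1 library left out it ranged from -0.74 without siRNAG5 4 to -0.33 without Ctrl 1 of Polysome, and none of these 16 fits called it. In the fit without the 3 libraries 659 genes had a lower and 106 a higher change on polysomes. The other differences were 0.17 for MCL1, 0.12 for BCL2, 0.16 for BCL2L1, 0.06 for BCL2L2, -0.02 for BAK1, 0.00 for BOK, 0.22 for BCL2L11 and 0.18 for BIK.

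The last pair of comparisons sets Polysome against Input within each treatment. It asks which mRNAs were higher or lower in Polysome relative to most genes, after TMM scaling, and not which share of all reads they took. The TMM factors were 0.741 to 0.852 in Input libraries and 0.975 to 1.59 in Polysome libraries. The scaling thus lowers Polysome values relative to Input values, and differences without such scaling were not tested. Both comparisons share libraries with those above. MCL1, BCL2 and BCL2L1 were higher in Polysome in both treatments, by 2.06-fold to 2.91-fold, while BCL2L2, the other prosurvival mRNA, was not called in either. In Ctrl, 3 of 10 members were called, all higher, against 37.6% of genes (18.2% lower and 19.4% higher). In siRNAG5, 5 were called, 4 higher and 1 lower, against 47% of genes (25.4% lower and 21.5% higher). The median log2 FC was 0.29 over the members and -0.04 over all genes in Ctrl, and 0.28 and -0.12 in siRNAG5.

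MCL1 went from 26.5 to 32.93 CPM in Input Ctrl to 52.13 to 91.27 CPM in Polysome Ctrl, with a log2 FC of 1.37 ± 0.16 (edgeR adjusted p = 2.148e-06). In siRNAG5 its log2 FC was 1.54 ± 0.16 (edgeR adjusted p = 2.609e-07). BCL2 had log2 FCs of 1.40 ± 0.27 in Ctrl and 1.52 ± 0.22 in siRNAG5 (edgeR adjusted p = 0.0003876 and 1.234e-05), and BCL2L1 of 1.04 ± 0.13 and 1.20 ± 0.12 (edgeR adjusted p = 2.461e-06 and 1.665e-07). For these 3 mRNAs all 4 Polysome libraries lay above all 4 Input libraries in each treatment. Each was called under every alternative tried, though those that only loosened the rule for a call could not drop one. Not overlapping were 5 members in Ctrl, 4 above and BID below, against 42% of genes (22.1% below and 19.9% above), and 7 in siRNAG5, 5 above with BID and BAD below, against 50% (27.3% below and 22.7% above).

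BCL2L11 was also higher in Polysome siRNAG5 than in Input siRNAG5 (log2 FC 0.70 ± 0.15, edgeR adjusted p = 0.0007509). In Ctrl its log2 FC of 0.48 ± 0.16 stayed below the fold limit (edgeR adjusted p = 0.01789), and it was 0.50 to 0.51 and called with DESeq2, with RLE size factors, without a filter on low counts or with the replicate number as a block (edgeR adjusted p = 0.01987 with the block). Input and Polysome RNA came from the same lysates, which the main fit does not use. BAK1 had 0.38 in Ctrl and 0.36 in siRNAG5, both under the fold limit with edgeR adjusted p of 0.02408 and 0.02375. BAD was lower in Polysome than in Input in siRNAG5 (log2 FC -0.68 ± 0.19, edgeR adjusted p = 0.004991) and had -0.18 ± 0.19 in Ctrl (edgeR adjusted p = 0.4713). These differences between the treatments are the ones tested in the third comparison, at 0.22 for BCL2L11 and -0.50 for BAD, and were not called there. The BAD value in siRNAG5 was -0.50 and just short of the fold limit without siRNAG5 2 of Polysome, and likewise with 1 surrogate variable.

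BID had a log2 FC of -0.21 ± 0.13 in Ctrl (edgeR adjusted p = 0.1884) and -0.42 ± 0.13 in siRNAG5 (edgeR adjusted p = 0.008895), the latter within the fold limit. Without the 3 libraries that stood apart, a choice made after the data had been seen, the value in siRNAG5 was -0.64 and called (edgeR adjusted p = 1.939e-05). BCL2L2 had 0.15 and 0.21, BOK 0.21 and 0.20, and BIK -0.27 and -0.09, none of them called. The interval of 2 SE for BCL2L2 in siRNAG5 ran from -0.21 to 0.62 and ended below the lower bounds of MCL1 (1.22), BCL2 (1.07) and BCL2L1 (0.96).

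Longer mRNAs were in general higher in Polysome than short ones in these libraries, so each member is set beside coding genes of like transcript length. In Ctrl the median log2 FC was -0.24 for transcripts under 1500 nt, -0.14 from 1500 to under 3000 nt, 0.20 from 3000 to under 5000 nt and 0.36 from 5000 nt. BCL2L1, with 2574 nt, had 1.04 where the interquartile range of its length class ran from -0.48 to 0.23. MCL1, with 3950 nt, had 1.37 where that range was -0.26 to 0.68, and BCL2, with 6881 nt, had 1.40 against -0.13 to 0.94. All of these 3 lay above the interquartile range of genes of their length. BAK1 at 2170 nt also did, and the other 6 lay inside it.

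In siRNAG5 the class under 1500 nt had a median of -0.42 and 37.8% of its genes called lower. BAD, with a transcript of 929 nt, had -0.68 beside a lower quartile of -0.66 in that class. BIK, with 951 nt, had -0.09 and lay above the upper quartile of -0.20. BID, with 2177 nt, had -0.42 within an interquartile range of -0.57 to 0.17, and BCL2L11, with 5098 nt, had 0.70 within -0.22 to 1.03. The called values of BAD and BCL2L11 were thus near to or inside the interquartile range for their length.

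**Figure D5:**
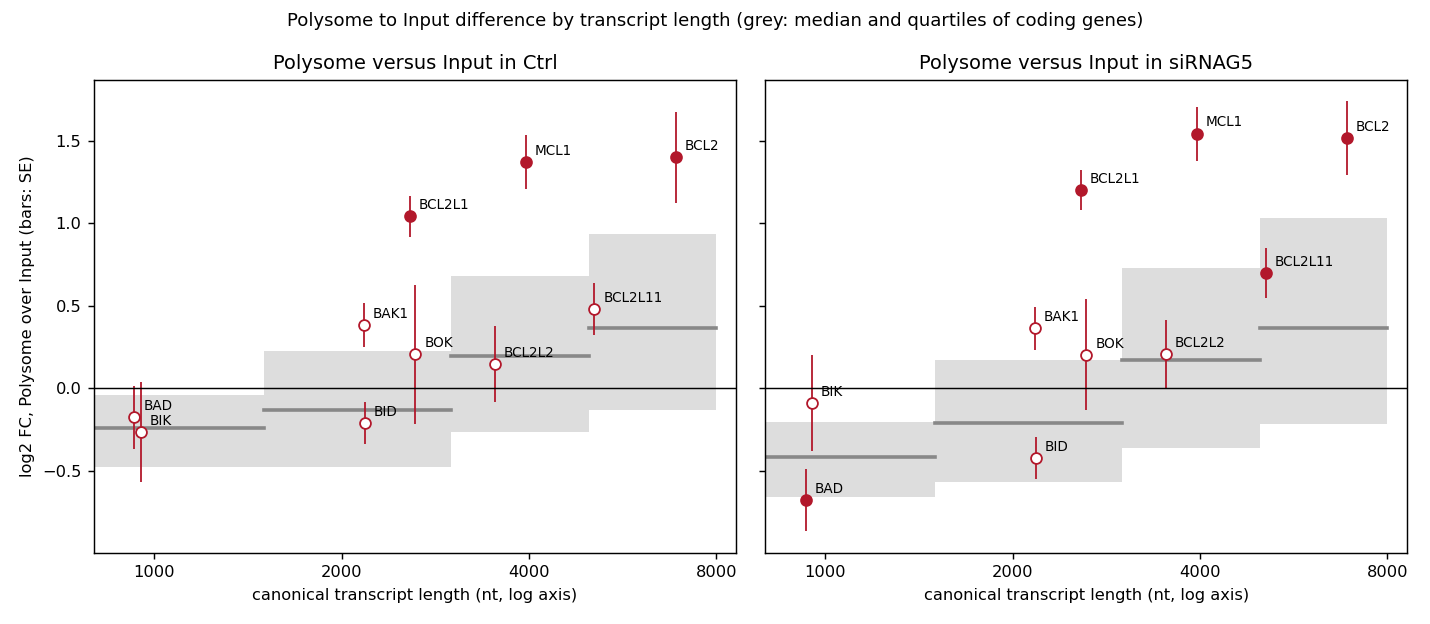
Log2 FC of Polysome over Input for each mRNA (points, bars for the standard error, filled if called) by canonical transcript length (nt, log axis) in Ctrl and siRNAG5, over grey lines and bands for the median and quartiles of coding genes in 4 length classes. MCL1, BCL2, BCL2L1 and BAK1 lie above the bands in both panels, and BAD, at -0.68, lies at the lower edge of its band in siRNAG5.

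The rest of the pathway was read from 5 lists holding 45 genes, of which 39 were tested in each comparison of treatments. In Input 4 were called lower and 4 higher, and in Polysome 2 lower and 3 higher, against 16.5% and 7.95% of all genes called in either direction. Of 11 other BCL2 family genes 7 were tested, and 2 were higher in each fraction with none lower. BMF, a BH3-only protein tied to the cytoskeleton, was higher in both (log2 FC 1.81 ± 0.30 in Input and 1.44 ± 0.25 in Polysome), BBC3, which encodes PUMA, was called in Input (0.93 ± 0.10) and PMAIP1, which encodes NOXA, in Polysome (0.95 ± 0.16), the last 2 being p53 targets. The median log2 FC of the list was 0.42 in Input and 0.36 in Polysome, against 0.04 and 0.03 over all genes. The BH3-only members described above had medians of -0.32 and -0.42, and BID alone of them was called. BMF, also BH3-only, went the other way. In Input and Polysome BBC3 was at 0.93 and 0.56, PMAIP1 at 0.47 and 0.95, and HRK at -0.05 and 0.01. The BH3-only genes thus did not move together.

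Among 11 caspases and activators, CYCS, the cytochrome c released through the pores, was lower in Input (log2 FC -0.50 ± 0.09), and no gene of the list was called in Polysome. Of the inhibitors of apoptosis and their antagonists, 6 of 8 were tested and XIAP, which binds caspases, was higher in both fractions (0.64 ± 0.17 and 0.74 ± 0.20). Of 10 mitochondrial membrane partners, PPIF, the cyclophilin of the inner membrane pore, was lower in both (-0.75 ± 0.07 and -0.81 ± 0.15), VDAC3, an outer membrane channel, in Input (-0.67 ± 0.07) and ENDOG, a mitochondrial nuclease, in Polysome (-0.65 ± 0.15). Of 5 genes acting on the turnover of MCL1 protein, USP9X, a deubiquitinase that spares MCL1, was higher in Input (0.71 ± 0.09) and none was called in Polysome. The median log2 FC in Input and Polysome was -0.23 and -0.14 for the caspase list, -0.05 and -0.05 for the inhibitors, -0.22 and -0.46 for the mitochondrial partners and 0.23 and -0.03 for MCL1 turnover. Called values carry edgeR adjusted p under the threshold given above, and no gene of these lists was called for the difference between fractions.

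The genes with levels most like those of BID were sought by the root-mean-square distance between log2 CPM values centred per gene, over 16 libraries and 14958 genes. STUB1, an E3 ubiquitin ligase and co-chaperone, was nearest at 0.0909, followed by BRI3BP at 0.095 and SFXN4, a mitochondrial protein, at 0.107, where the median distance of all genes was 0.616. STUB1 had log2 FCs of -0.58 in Input and -0.78 in Polysome, BRI3BP of -0.69 and -0.85, and SFXN4 of -0.72 and -0.84. These genes were picked for their likeness to BID over the same libraries, so log2 FCs near those of BID follow from the choice.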

How the data were processed

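The authors prepared TruSeq Stranded mRNA libraries, aligned reads to GRCh38 (Ensembl release 91) with STAR 2.5.3a and deposited QoRTs read counts per gene for each of 16 libraries. Use of strand in counting is not given in the sources used here. Reads that were ambiguous (4.14 to 7.41% of reads), not unique or outside features (0.667 to 1.33%) were left out of library sizes. Reads that were not unique made up 4.88 to 6.04% in Input libraries and 21.2 to 42.4% in Polysome libraries. Counts were tested by quasi-likelihood in edgeR 4.0.16 (R 4.3.3), after filterByExpr and TMM scaling, with Benjamini-Hochberg adjustment over all tested genes. Treatments were fitted within the 8 libraries of a fraction, and contrasts between fractions over 16 libraries. The limits for a call were 0.05 for the adjusted p and 0.5 for the size of the log2 FC. Printed CPM are TMM-scaled over 16 libraries. Between replicates the edgeR estimate of biological variation (BCV) came to 0.0806 for Input libraries and 0.216 for those of Polysome. GENCODE v44 on GRCh38 gave names (57532 of 58302 IDs), lengths and positions, and RefSeq the start windows. DESeq2 1.42.0, sva 3.50.0 and other settings served as alternatives. The tests were checked on simulated data. All 10 members, the called genes of the pathway lists (apart from 1 that is not reported here) and the 3 genes nearest to a called member are named; members and lists were chosen with earlier results of these data known. The 24 pairs of replicates of a group differed by more than sampling noise. Replicates are described as independent biological samples. Same-numbered libraries did not all deviate together (correlations of -0.53 to 0.483 in Polysome).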

Additional observations from a re-analysis of the deposited data

Results flagged for a closer look

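In Polysome siRNAG5, BIK was at 2.444 CPM in replicate 4 and at 1.179 to 1.386 CPM in the other 3 replicates. The gap between replicate 4 and its nearest neighbour was 0.836 of the whole range of the group, above Dixon's critical value for 4 samples. It was the only one of 40 groups of 4 values marked in this way, where chance marks about 1 in 20. Replicate 4 is one of the 3 Polysome libraries that stood apart on the third principal component, and it rested on 53 BIK reads against 23 to 36 in the others.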

How the results depend on the processing

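Of 893 log2 FCs of members under alternative settings, 808 kept their direction and side of the threshold. A further 49 changed sign, 31 passed the threshold anew and 5 no longer did. The settings with an unadjusted p or no limit on the log2 FC reuse the main log2 FC with a looser rule. They can only add calls and cannot change a sign. The BID call in Input was kept in all 16 alternatives (log2 FC -0.63 to -0.59), which include these looser rules. In Input 2 members were called with an unadjusted p, and 1 to 2 with a library left out. Over all genes of Input, an unadjusted p called 917 lower and 1685 higher of 14134. Fits with a library left out called 696 to 956 lower and 1197 to 1556 higher, of 14275 to 14423 genes. In Polysome 2 were called with DESeq2 or no filter on low counts, 3 with 1 surrogate variable, with all 16 libraries in one fit or without the 3 libraries that stood apart (an alternative added after the data had been seen), 4 with an unadjusted p, and 0 to 3 with a library left out, the 0 being without Ctrl 2, siRNAG5 2 or siRNAG5 3. Over all genes of Polysome, an unadjusted p called 1343 lower and 1599 higher of 14420. Fits with a library left out called 113 to 836 lower and 76 to 687 higher, of 14574 to 14705 genes. For the difference between fractions 1 member, BAD, was called with 1 surrogate variable or without the 3 libraries. In Polysome versus Input in Ctrl 5 were called with no limit on the log2 FC, against 3280 lower and 3417 higher of 14958 genes. The cause of these shifts was not tested.

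Every sign change was in a value not called. In the difference between fractions, BAK1 was at 0.0135 with DESeq2, 0.0134 with RLE size factors and 0.0207 with no filter, BOK at 0.0282, 0.0302 and 0.0349 with the same settings, 0.0042 with 1 surrogate variable and 0.00 with the replicate block, and BCL2L2 at -0.0244 without the 3 libraries. BCL2L1 in Input was at 0.0055 with no filter, MCL1 in Polysome at -0.0466 with 1 surrogate variable and -0.0009 in one fit of 16. In Polysome versus Input, BAD in Ctrl was at 0.0144 and BIK in siRNAG5 at 0.0864 with 1 surrogate variable, and BOK in siRNAG5 at -0.0775 without the 3 libraries. With a library left out the ranges were -0.0636 to 0.0938 for BCL2L1 in Input, -0.095 to 0.16 for MCL1 and -0.0056 to 0.11 for BCL2L11 in Polysome, -0.0507 to 0.31 for BCL2L2 in Polysome versus Input in Ctrl and -0.39 to 0.0588 for BIK in siRNAG5. For the difference they were -0.0916 to 0.28 for BCL2, -0.11 to 0.26 for BCL2L2, -0.11 to 0.0629 for BAK1, -0.18 to 0.31 for BOK and -0.12 to 0.36 for BIK.

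Input and Polysome came from the same lysates, but the labels do not say that a number marks a shared culture, and same-numbered Input and Polysome libraries did not all deviate together (correlations of -0.207 to 0.222 over genes). With the replicate block BCL2L11 in Polysome versus Input in Ctrl was called (0.50, edgeR adjusted p = 0.01987), and no other member's call changed. Over all genes the block left 558 lower and 444 higher of 14420 in Polysome, against 577 and 569 in the main fit. That count was 1101 and 840 of 14420 with DESeq2, and 1398 and 1563 of 14420 with 1 surrogate variable. It was 941 and 825 of 27384 with no filter, and 1520 and 1077 of 14958 in one fit of 16. It was 1788 and 1327 of 14717 without the 3 libraries, and 113 and 76 of 14705 without Ctrl 2. For the difference it was 278 and 74 of 14958 with 1 surrogate variable. Depth limits BCL2, BOK and BIK most, with 4 to 108 reads per library.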
